A study of Mus musculus with 12 samples.

Results

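The genes of DNA replication and S phase described here are 54 of the 48709 genes counted in each library of primary hippocampal cultures of the mouse. The members were chosen by name for their known roles, with earlier results of these data known. They fall into 8 steps of replication, with 11 genes of origin licensing, 8 of helicase activation, 9 of the replicative polymerases, 8 of the sliding clamp, its loader and the lagging strand, 5 of nucleotide supply, 6 of E2F and cyclin E control, 4 of fork protection and 3 of chromatin assembly behind the fork. All 54 were found in the count tables, and all 54 passed the filter on low counts.

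The study asked which transcripts change when the level of miR-148a-3p, a microRNA of a signature measured in blood, is raised in cultured hippocampal cells. Cells were taken from CD1 mouse embryos at embryonic day 17. At day 10 in vitro, the cultures received lipid nanoparticles loaded either with a miR-148a-3p mimic (6 samples) or with a negative control RNA (6 samples), and RNA was collected at day 12, 48 h later. Poly(A)+ RNA was then sequenced as single-end reads. By the methods of the study, ApoE4 protein was given with the particles in both groups, and the hippocampi of the embryos of a litter were pooled for a preparation. The embryos carried no engineered allele that the labels name. The labels number the samples of each group but do not say that they came from separate preparations, so the p-values below measure the spread between these samples, which may be technical in part. The labels call the cells primary hippocampal neurons. The neuronal markers Map2, Syt1 and Snap25 were abundant, with control means of 2362, 733 and 720 CPM (counts relative to the library total), and so were the astrocyte markers Slc1a2 and Gfap, with control means of 1693 and 1362 CPM, so the libraries hold RNA of glial cells as well.

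DNA replication begins in G1, when the origin recognition complex, Cdc6 and Cdt1 load the ring-shaped MCM2-7 helicase onto origins of replication. At the start of S phase, kinases and loading factors join Cdc45 and the GINS complex to the ring, the helicase begins to unwind DNA, and the polymerases follow with the clamp PCNA, while ribonucleotide reductase and its partner enzymes supply deoxynucleotides. Many of these genes are transcribed as cells pass from G1 to S under E2F transcription factors. Mature neurons have left the cell cycle and do not normally replicate their DNA, whereas glial precursors and astrocytes can still divide in culture.

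The sequences of both oligonucleotides are shown because they set the treatment apart, with the seed (bases 2 to 8), the stretch by which a microRNA recognises transcripts, in capitals.
miR-148a-3p mimic: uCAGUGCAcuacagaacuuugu
negative control: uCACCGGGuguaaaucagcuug
The mimic is identical over its 22 bases to mature mmu-miR-148a-3p in RefSeq, which lies at chr6:51269829-51269850 on the minus strand (GRCm38.p6). Both sequences stand in the study's list of reagents, and the control values assume that the listed control RNA is the one used in these samples.

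Library totals ranged from 20018234 to 37149112 counts and did not differ between the groups beyond their spread (exact permutation p = 0.515, two-sided). Of 18847 genes tested across all libraries with edgeR's quasi-likelihood test and Benjamini-Hochberg adjustment, 2163 (11.5%) were higher and 2019 (10.7%) were lower with the mimic at an adjusted p under 0.05. In 1400 genes (7.43%), all 6 mimic libraries lay above all 6 control libraries in CPM, for which library totals were scaled by edgeR's TMM factors. Control replicates 1 and 2 were the shallowest libraries, and control replicate 1 stood apart in the summed oligodendrocyte markers.

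Replication genes were higher with the mimic at every step. Of the 54 members, 42 rose (77.8%, against 11.5% of all tested genes, with the list drawn up when earlier results were known), 0 fell (against 10.7% of all tested genes) and 12 were not called. In 35 members the 6 mimic libraries lay above the 6 control libraries, against 7.43% of all tested genes. The median log2 fold change of the members was 0.48, from -0.062 for Slbp to 1.04 for Mcm3, and 26 members exceeded 0.5, whereas the median over all tested genes was -0.012. At an unadjusted p under 0.05, 44 members were higher and 0 lower. By DESeq2, 42 members were called higher and 0 lower. The sum over the members was 718 CPM in the lowest, 740 CPM in the median and 751 CPM in the highest control library, and 950, 994 and 1020 CPM in the mimic libraries. Every mimic library therefore lay above every control library in the total of these transcripts. In bulk RNA, a change in the number of cells of a type and a change in RNA per cell cannot be told apart.

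**Figure D1:**
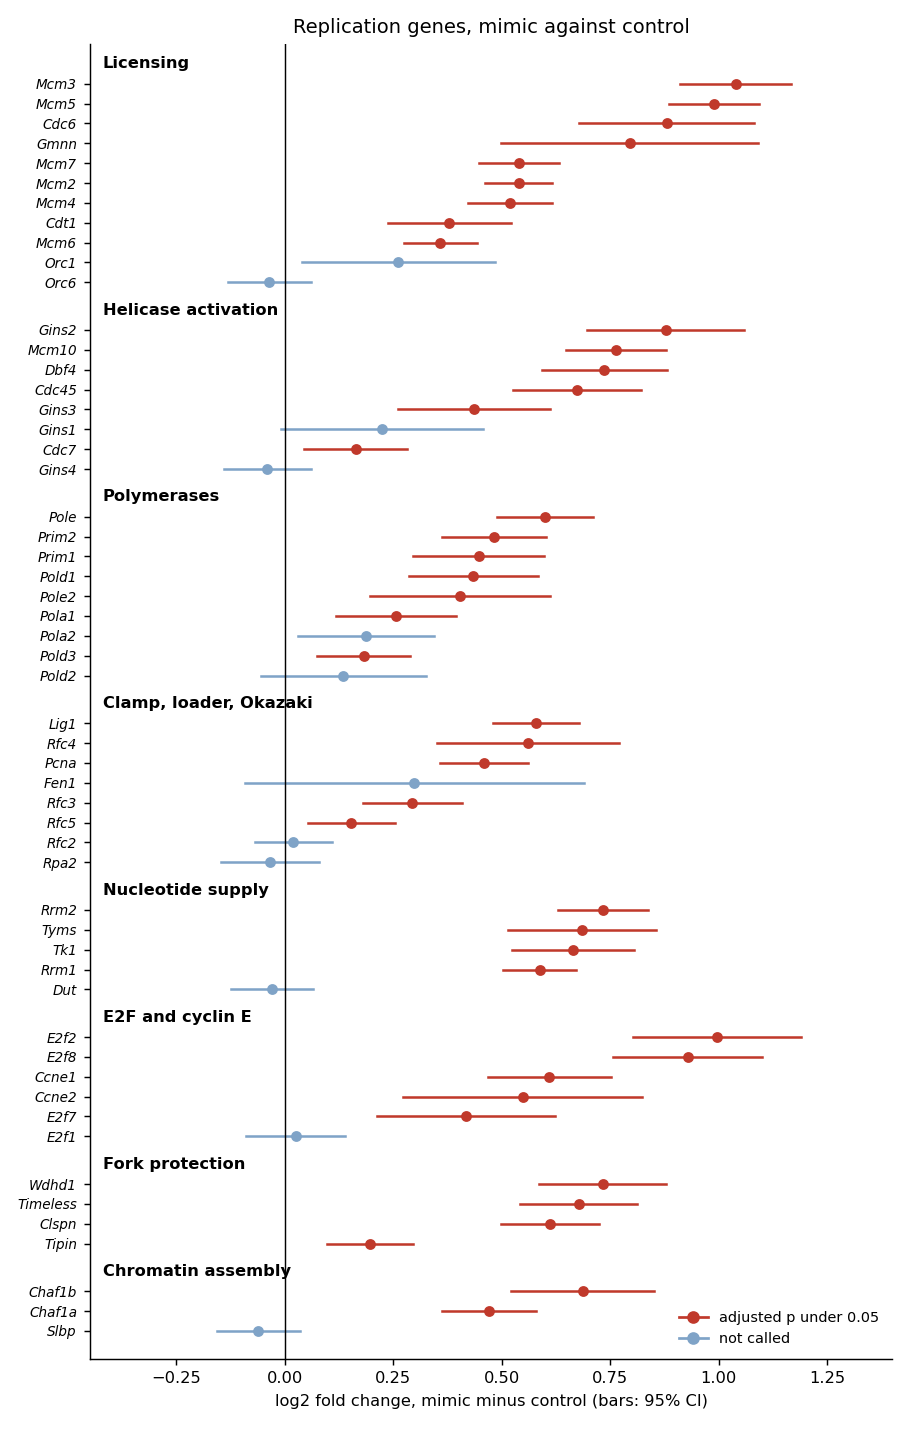
Log2 fold changes of the 54 members (mimic minus control, horizontal axis) with 95% confidence intervals, grouped by step, red for an adjusted p under 0.05 and blue for members not called. The red points lie to the right of 0 at all 8 steps, and a blue point is found at every step but fork protection.

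The shift was present in each library and not carried by a few. For each member the log2 CPM of a library (with 0.5 CPM added) was set against the mean of the control libraries, and the median over the members was taken. It ran from -0.038 to 0.028 in the control libraries and from 0.40 to 0.52 in the mimic libraries. Mimic replicate 3 had the lowest of the mimic values, and it was the lowest mimic library for 21 of the 54 members. Across steps, the medians for nucleotide supply lay from 0.55 to 0.68 in the mimic libraries, above those of the other steps except for E2F control in mimic replicate 2 and fork protection in mimic replicate 3. The clamp, its loader and the lagging strand had the lowest median in each mimic library, from 0.17 to 0.39. The control and mimic libraries did not overlap at any step.

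**Figure D2:**
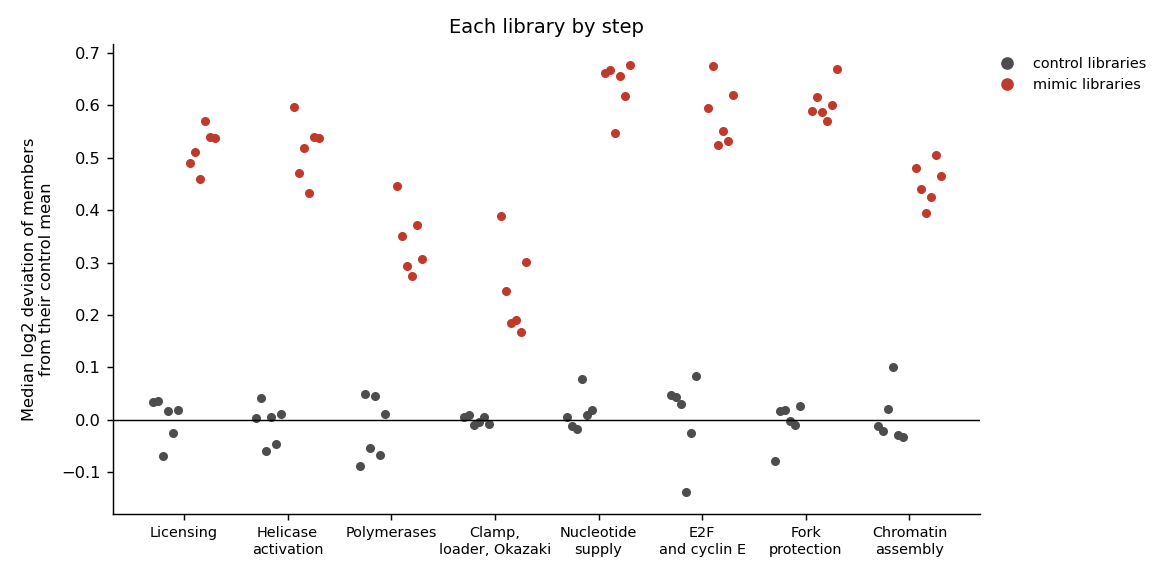
Median log2 deviation of the members of each step from their control mean (vertical axis) in each of the 6 control (grey) and 6 mimic (red) libraries, 1 point per library. At all 8 steps the mimic points lie above the control points, with the smallest gap for the clamp, its loader and the lagging strand.

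Licensing genes rose except for subunits of the origin recognition complex. Of the 11 licensing members, 9 rose and 2 were not called, with a median log2 fold change of 0.54. The 6 subunits of the MCM2-7 helicase all rose, by log2 fold changes of 0.36 (Mcm6), 0.52 (Mcm4), 0.54 (Mcm2), 0.54 (Mcm7), 0.99 (Mcm5) and 1.04 (Mcm3). In the protein ring the 6 are present in equal numbers. Mcm3 had 19.4 CPM in the lowest, 21.9 in the median and 24.0 in the highest control library, and 37.6, 46.4 and 47.5 CPM with the mimic. The groups were far apart for this subunit, and the fold change of 2.05 (log2 fold change 1.04, SE 0.061) had an edgeR adjusted p of 2.84e-09. Mcm5 had 18.0, 19.7 and 21.0 CPM in control and 35.5, 38.7 and 41.2 CPM with the mimic, again without overlap (log2 fold change 0.99, SE 0.049, edgeR adjusted p = 5.53e-10). Mcm6 had the smallest change of the ring, with 31.1, 32.8 and 34.2 CPM in control and 39.6, 41.9 and 44.8 CPM with the mimic (log2 fold change 0.36, SE 0.04, edgeR adjusted p = 3.63e-06). Its interval, from 0.27 to 0.44, did not reach that of Mcm5, from 0.88 to 1.09. On a per-length scale (RPKM, CPM divided by exon length in kilobases), the subunits ranged from 3.54 to 8.39 in control and from 5.13 to 12.1 with the mimic, so the spread within the ring was 2.37-fold and 2.35-fold. In the mouse genome (GRCm38, GENCODE M21) the genes of the ring lie apart, with Mcm2 at chr6:88883474-88898780, Mcm3 at chr1:20802968-20820312, Mcm4 at chr16:15623897-15637400, Mcm5 at chr8:75109569-75128439, Mcm6 at chr1:128331590-128359664 and Mcm7 at chr5:138164583-138172422, so that only Mcm3 and Mcm6 share a chromosome. The counts run over all exons of each gene.

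**Figure D3:**
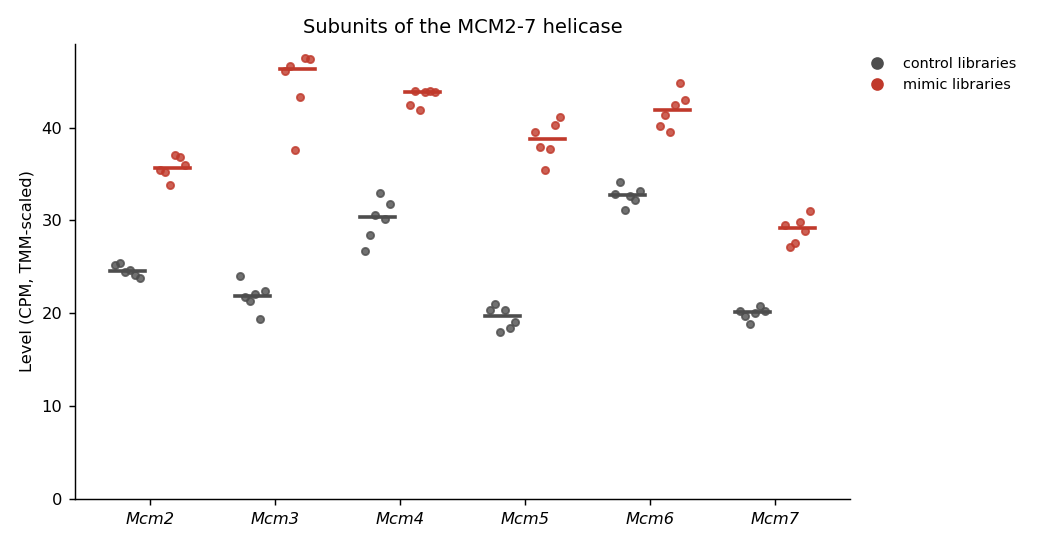
Levels of the 6 MCM2-7 subunits in CPM (vertical axis, from 0) in each control (grey) and mimic (red) library, with a bar at the median of each group. The groups are separate for all 6 subunits, with the widest gaps for Mcm3 and Mcm5.

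Loading factors and their inhibitor moved together. Cdc6, the ATPase that helps to load the ring, rose by a log2 fold change of 0.88, and Cdt1, its partner in loading, by 0.38. Gmnn, which encodes geminin, the inhibitor of Cdt1 that prevents repeated licensing, rose by 0.79, with 5 of 6 mimic libraries above the highest control library. The members of the origin recognition complex behaved otherwise. Orc6 had the highest per-length level of the licensing members in control (13.8 RPKM) and had 32.0 CPM in the lowest, 34.1 in the median and 36.4 in the highest control library, against 31.4, 32.6 and 36.7 CPM with the mimic. The groups overlapped over nearly the whole range (log2 fold change -0.036, 95% interval -0.13 to 0.06, edgeR adjusted p = 0.642). The exons of Orc6 share 6.93% of their bases with Vps35 on the opposite strand, with mean counts of 1008 and 10503, so its level may include reads of Vps35. Orc1, a low transcript with a mean of 69.2 counts, had 1.67, 2.11 and 2.34 CPM in control and 2.08, 2.503 and 2.91 CPM with the mimic. It was higher in 5 of 6 mimic libraries than in any control library, yet was not called (log2 fold change 0.26, SE 0.11, edgeR adjusted p = 0.0885), and it was called when mimic replicate 3 was left out (0.32, adjusted p = 0.041).

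Promoters of helicase genes are shown because members that move together may share promoter words. Promoters of 300 bases (250 before to 50 after the transcript start, RefSeq, GRCm38.p6) were at hand for 44 of the 54 members and were searched on both strands for 4 words that fit the E2F consensus, TTTCCCGC, TTTGGCGC, TTTCGCGC and TTTGCCGC. The words share letters and may overlap each other on opposite strands. A word was found in 17 of 44 members (38.6%), in 12 of 61 other replication genes with a promoter (19.7%), in 1 of 18 genes of G2 and M phase (5.56%) and in 704 of all 27025 genes with a promoter (2.61%). The windows of Mcm3, Mcm5 and Mcm6 are printed with the words in capitals, that of Rrm2 as a called gene whose window holds none.
Mcm3 (chr1:20820263-20820562, minus strand): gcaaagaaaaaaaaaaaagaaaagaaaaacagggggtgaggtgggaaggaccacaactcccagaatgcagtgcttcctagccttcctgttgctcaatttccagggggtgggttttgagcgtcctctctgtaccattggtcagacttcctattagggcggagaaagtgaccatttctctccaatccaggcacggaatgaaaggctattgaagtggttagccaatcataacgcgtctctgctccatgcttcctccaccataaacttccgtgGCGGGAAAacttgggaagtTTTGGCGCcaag
Mcm5 (chr8:75109259-75109558, plus strand): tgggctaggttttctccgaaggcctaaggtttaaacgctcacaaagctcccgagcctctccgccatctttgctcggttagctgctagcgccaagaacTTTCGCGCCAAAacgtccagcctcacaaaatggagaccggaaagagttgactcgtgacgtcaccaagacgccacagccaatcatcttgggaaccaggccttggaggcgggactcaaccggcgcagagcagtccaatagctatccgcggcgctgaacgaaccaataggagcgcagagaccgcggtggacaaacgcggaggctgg
Mcm6 (chr1:128359656-128359955, minus strand): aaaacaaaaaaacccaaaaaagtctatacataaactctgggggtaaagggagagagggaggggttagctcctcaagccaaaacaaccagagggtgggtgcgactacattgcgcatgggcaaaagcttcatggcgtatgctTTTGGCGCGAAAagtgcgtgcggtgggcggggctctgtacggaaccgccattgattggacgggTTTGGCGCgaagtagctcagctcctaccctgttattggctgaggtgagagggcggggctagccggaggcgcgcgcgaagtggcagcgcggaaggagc
Rrm2 (chr12:24708004-24708303, plus strand): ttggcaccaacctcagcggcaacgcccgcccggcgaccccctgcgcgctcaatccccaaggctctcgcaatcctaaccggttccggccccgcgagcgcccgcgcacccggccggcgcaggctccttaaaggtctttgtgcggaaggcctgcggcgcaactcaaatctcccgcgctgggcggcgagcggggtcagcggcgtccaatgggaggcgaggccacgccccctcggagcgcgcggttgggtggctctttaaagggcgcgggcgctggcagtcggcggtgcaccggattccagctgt
Mcm3 and Mcm5, the subunits with the largest changes, have 2 words each, which overlap in Mcm5, and Mcm6, the subunit with the smallest, has 3, of which 2 overlap. Mcm7 has 2 words in its window at chr5:138171834-138172133, and Mcm2 has 0, with log2 fold changes of 0.54 for both. Of the 17 members with a word, 16 rose, and of the 27 with a promoter and no word, 19 rose. A window may miss the main start of its gene. Those of Timeless (chr10:128237816-128238115) and E2f1 (chr2:154569377-154569676), without a word, lie inside the gene models (chr10:128232065-128252941 and chr2:154559407-154569892). The median log2 fold changes were 0.43 with a word and 0.54 without. Across all tested genes, 104 of 542 genes with a word (19.2%) and 1571 of 12290 without (12.8%) were higher. These matches describe the letters of the windows only.

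Of 8 members that activate the helicase, 6 rose and 2, both subunits of the GINS complex, were not called (median log2 fold change 0.55). Mcm10, a factor needed for the loaded helicase to start unwinding, had 5.50 CPM in the lowest, 5.96 in the median and 6.22 in the highest control library and 9.60, 10.1 and 10.6 CPM with the mimic. The libraries of each group lay close together and far from the other group (log2 fold change 0.76, SE 0.055, edgeR adjusted p = 2.18e-08). Cdc45, the helicase cofactor, rose by 0.67. The kinase Cdc7 rose by 0.16, which was near the threshold (edgeR adjusted p = 0.0458) and was lost under 12 of 20 alternative settings (adjusted p from 0.034 to 0.097 with 1 library left out, 0.050 without control replicate 1 and 0.059 without control replicates 1 and 2), whereas its regulatory subunit Dbf4 rose by 0.74.

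GINS is built of 4 subunits in equal numbers, and their transcripts changed unequally. Gins2 had 4.37, 4.96 and 6.51 CPM in control and 8.57, 9.17 and 10.3 CPM with the mimic, with no overlap (log2 fold change 0.88, SE 0.086, edgeR adjusted p = 9.28e-07). The exons of Gins2 share 67.3% of their bases with Gse1 on the opposite strand, which had a log2 fold change of -0.05 (edgeR adjusted p = 0.66), and the strand setting of the counting is not given in the sources used here. Gins3 rose by 0.44. Gins4 had the highest level of the step per length in control, at 16.5 RPKM, and had 21.2, 21.9 and 23.8 CPM in control against 20.4, 21.6 and 23.2 CPM with the mimic. For Gins4 the mimic range reached below and not above the control range (log2 fold change -0.04, 95% interval -0.14 to 0.06, edgeR adjusted p = 0.613). Gins1 had 3.01, 3.63 and 4.59 CPM in control and 3.59, 4.29 and 5.12 CPM with the mimic, where 3 mimic libraries exceeded the highest control library (log2 fold change 0.22, SE 0.11, edgeR adjusted p = 0.17). Per length, the highest subunit exceeded the lowest 13.1-fold in control and 8.21-fold with the mimic.

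**Figure D4:**
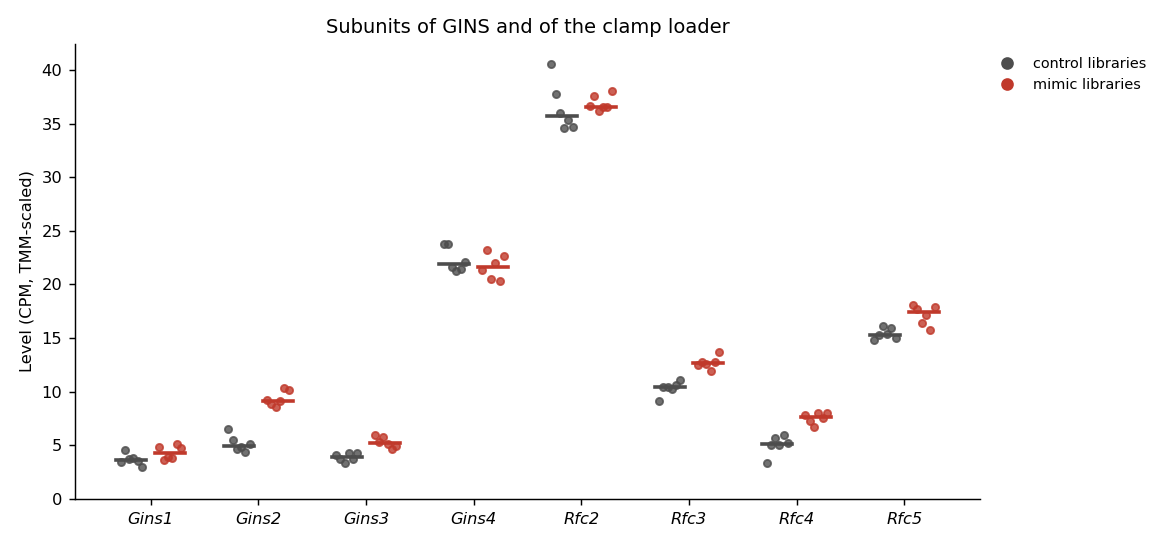
Levels of the GINS subunits Gins1 to Gins4 and of the clamp loader subunits Rfc2 to Rfc5 in CPM (vertical axis, from 0) in each control (grey) and mimic (red) library, with a bar at the group median. The groups are separate for Gins2, Gins3, Rfc3 and Rfc4 and overlap for Gins1, Gins4, Rfc2 and Rfc5.

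Catalytic subunits of the replicative polymerases rose, by amounts that differed between polymerases. Of 9 polymerase members, 7 rose and 2 were not called (median log2 fold change 0.40). Pole, the catalytic subunit of the leading strand polymerase epsilon, had 13.7, 14.6 and 15.8 CPM in control and 20.3, 22.3 and 24.2 CPM with the mimic (log2 fold change 0.60, SE 0.053, edgeR adjusted p = 2.71e-07). The 2 groups were separate, and the interval of Pole, from 0.49 to 0.71, lay above that of Pola1, the catalytic subunit of polymerase alpha, from 0.12 to 0.39 (log2 fold change 0.26). Prim2, the large primase subunit that works in 1 complex with polymerase alpha, had 9.51, 10.2 and 11.3 CPM in control and 13.0, 14.5 and 15.1 CPM with the mimic, again without overlap (log2 fold change 0.48, SE 0.057, edgeR adjusted p = 7e-06). The other primase subunit, Prim1, rose by 0.45, Pold1, the catalytic subunit of polymerase delta, by 0.43, and Pole2 and Pold3, accessory subunits of epsilon and delta, by 0.40 and 0.18.

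The accessory subunits Pold2 and Pola2 were not called with all libraries by edgeR, and both were called without control replicate 1 and by limma voom with quality weights (adjusted p = 0.0015 for Pold2 and 0.00085 for Pola2). Pold2, with the highest per-length level of the step (12.2 RPKM in control), had 19.6 CPM in the lowest, 21.7 in the median and 31.6 in the highest control library, and 24.0, 24.6 and 28.1 CPM with the mimic. The highest value was control replicate 1, and the other control libraries lay between 19.6 and 23.8 CPM, below all mimic libraries. With all libraries the log2 fold change was 0.13 (SE 0.09, edgeR adjusted p = 0.328), and without control replicate 1 it was 0.23 (adjusted p = 0.0016). Pola2, the second subunit of polymerase alpha, had 9.12, 9.79 and 12.7 CPM in control and 10.7, 11.4 and 12.4 CPM with the mimic, with control replicate 1 highest of all libraries. Its log2 fold change was 0.19 (SE 0.074, edgeR adjusted p = 0.0836) with all libraries and 0.25 (adjusted p = 0.0036) without control replicate 1.

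The clamp and the ligase rose, and the clamp loader changed unequally. Of the 8 members of the clamp, its loader and the lagging strand, 5 rose and 3 were not called, with the lowest median of the 8 steps (log2 fold change 0.30). Pcna, the sliding clamp that holds polymerases on DNA, had the highest level of this step per length in control (7.14 RPKM) and had 15.9, 17.4 and 18.1 CPM in control against 22.1, 23.6 and 24.9 CPM with the mimic. No control library reached the lowest mimic library (log2 fold change 0.46, SE 0.048, edgeR adjusted p = 2.21e-06). Its pseudogene Pcna-ps2 had a mean of 239 counts, so reads may be split between the copies. Lig1, the ligase that joins Okazaki fragments, had 20.5, 21.2 and 24.2 CPM in control and 30.1, 32.1 and 33.8 CPM with the mimic (log2 fold change 0.58, SE 0.047, edgeR adjusted p = 1.07e-07). Rfc4 had 3.33, 5.14 and 6.00 CPM in control and 6.72, 7.68 and 7.98 CPM with the mimic (log2 fold change 0.56, SE 0.10, edgeR adjusted p = 0.000469). Control replicate 1 was the lowest for Rfc4, and the groups did not overlap. The exons of Rfc4 share 12.7% of their bases with Eif4a2 on the opposite strand, with mean counts of 191 and 10320. Eif4a2 had a log2 fold change of 0.003 (edgeR adjusted p = 0.98).

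Among the other loader subunits, Rfc3 rose by 0.29 and Rfc5 by 0.15, a call lost under 6 of 20 alternative settings (adjusted p from 0.012 to 0.062 with 1 library left out). The exons of Rfc5 share 10.7% of their bases with Wsb2 on the opposite strand, with mean counts of 488 and 6158. Rfc2 had 34.6 CPM in the lowest, 35.7 in the median and 40.5 in the highest control library and 36.2, 36.6 and 38.0 CPM with the mimic. All mimic libraries of Rfc2 lay inside the control range (log2 fold change 0.019, 95% interval -0.07 to 0.11, edgeR adjusted p = 0.814). Rpa2, a subunit of the single-strand binding protein RPA, had 13.9, 15.6 and 16.8 CPM in control and 14.5, 15.0 and 16.02 CPM with the mimic, also inside the control range (log2 fold change -0.034, 95% interval -0.15 to 0.078, edgeR adjusted p = 0.715). Fen1, the flap nuclease of Okazaki fragments, was a low transcript in these tables, with a mean of 31.2 counts, and 78.8% of its exon bases are shared with Gm10143 on the opposite strand. It had 0.680, 0.851 and 1.57 CPM in control and 0.978, 1.11 and 1.56 CPM with the mimic, and at this depth the interval of its change was wide (log2 fold change 0.30, 95% interval -0.093 to 0.69, edgeR adjusted p = 0.291). Its highest control value was control replicate 1, without which it was called (0.45, adjusted p = 0.047).

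Of 5 member enzymes of deoxynucleotide supply, 4 rose and 1, the dUTPase gene Dut, was not called (median log2 fold change 0.66). Rrm2, the regulated small subunit of ribonucleotide reductase, which makes deoxynucleotides from ribonucleotides, had 19.96, 22.9 and 24.6 CPM in control and 36.2, 38.0 and 40.0 CPM with the mimic. The lowest mimic library was well above the highest control library (log2 fold change 0.73, SE 0.049, edgeR adjusted p = 8.99e-09). Tyms, thymidylate synthase, had 5.45, 7.60 and 8.11 CPM in control and 10.7, 11.8 and 12.3 CPM with the mimic (log2 fold change 0.68, SE 0.081, edgeR adjusted p = 7.49e-06). Control replicate 1 was lowest for Tyms, and no libraries of the 2 groups overlapped. Tk1, the thymidine kinase of S phase, rose by 0.66, and Rrm1, the large subunit of the reductase, by 0.59. Dut, which degrades dUTP and so keeps uracil out of DNA, had the highest level of these enzymes per length in control (9.91 RPKM) and had 22.04, 23.9 and 25.7 CPM in control against 22.2, 23.4 and 24.2 CPM with the mimic. The mimic range lay inside the control range (log2 fold change -0.03, 95% interval -0.12 to 0.065, edgeR adjusted p = 0.702).

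E2F factors differed within the family. Of the 6 members of this step, 5 rose and 1 was not called (median log2 fold change 0.58). E2f8, an atypical E2F that represses E2F targets late in S phase, had 3.34, 3.94 and 4.76 CPM in control and 6.51, 7.51 and 7.98 CPM with the mimic (log2 fold change 0.93, SE 0.081, edgeR adjusted p = 2.63e-07). The 2 groups were separate, with mimic replicate 4 the lowest of the mimic libraries. E2f7, the other atypical member, rose by 0.42, and E2f2, an activator with a mean of 78 counts, by 1.00. E2f1, also an activator, had the highest level of the 4 E2F members per length in control (5.04 RPKM) and had 13.9, 16.5 and 17.5 CPM in control against 15.9, 16.1 and 16.4 CPM with the mimic. All mimic libraries lay inside the control range and close together (log2 fold change 0.025, 95% interval -0.089 to 0.14, edgeR adjusted p = 0.804). Ccne1, cyclin E1, which drives the entry into S phase with Cdk2, had 7.98, 8.75 and 9.59 CPM in control and 11.5, 13.7 and 14.7 CPM with the mimic, without overlap (log2 fold change 0.61, SE 0.067, edgeR adjusted p = 3.43e-06). Ccne2, cyclin E2, rose by 0.55, with 17.4% of its exon bases shared with Ints8 on the opposite strand.

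Fork protection genes rose without an exception among the 4 members (median log2 fold change 0.64). Wdhd1, which tethers polymerase alpha to the helicase, had 7.07, 8.44 and 9.70 CPM in control and 13.1, 13.7 and 15.4 CPM with the mimic (log2 fold change 0.73, SE 0.069, edgeR adjusted p = 6.05e-07). Timeless, a fork protection factor, had 6.28, 7.18 and 7.78 CPM in control and 10.6, 11.4 and 12.3 CPM with the mimic (log2 fold change 0.68, SE 0.064, edgeR adjusted p = 5.84e-07). The groups did not overlap for either gene. Tipin, the protein partner of Timeless, had the highest level of the step per length in control (8.55 RPKM), with 14.2, 16.3 and 16.7 CPM in control and 17.7, 18.5 and 18.8 CPM with the mimic. Its groups were separate too, but its change was smaller, with an interval of 0.10 to 0.29 against 0.54 to 0.81 for Timeless (log2 fold change 0.20, SE 0.047, edgeR adjusted p = 0.00527). Clspn, the checkpoint mediator claspin, rose by 0.61.

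Chromatin assembly behind the fork was higher in the chaperone and not in the histone mRNA factor. Of the 3 members, 2 rose and 1 was not called (median log2 fold change 0.47). Chaf1b, a subunit of the histone chaperone CAF-1, had 4.98, 5.42 and 6.31 CPM in control and 7.53, 8.90 and 9.80 CPM with the mimic (log2 fold change 0.69, SE 0.078, edgeR adjusted p = 4.73e-06). Chaf1a, the large subunit, had 10.1, 11.4 and 12.2 CPM in control and 15.0, 15.7 and 16.3 CPM with the mimic (log2 fold change 0.47, SE 0.051, edgeR adjusted p = 3.26e-06). Both were without overlap between the groups, although 52.5% of the exon bases of Chaf1a are shared with Ubxn6 on the opposite strand, which had a log2 fold change of 0.01 (edgeR adjusted p = 0.94). Slbp, which binds the stem-loop of histone mRNAs, had the highest level of the 3 members per length in control (3.64 RPKM) and had 21.2, 21.8 and 23.7 CPM in control against 19.5, 21.3 and 22.7 CPM with the mimic. The groups overlapped (log2 fold change -0.062, 95% interval -0.16 to 0.035, edgeR adjusted p = 0.385).

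Abundant members were often among those not called. In 6 of the 8 steps, the member with the highest control level per length (Orc6, Gins4, Pold2, Dut, E2f1 and Slbp) was not called. This order depends on the length used, that of all annotated exons of a gene merged. Rrm1, with 11012 such bases, had 4.85 RPKM in control but the highest control mean of the members in CPM (53.4). It rose by a log2 fold change of 0.59. The median control level was 5.11 RPKM over the 12 members not called and 1.84 RPKM over the 42 called members. Of the 27 members below the median control level, 24 rose, with a median log2 fold change of 0.61, and of the 27 at or above it, 18 rose, with a median of 0.29. Across the 54 members, control level and log2 fold change had a Spearman rho of -0.45 (Pearson r on log2 RPKM of -0.46), as a description over genes that share libraries and, in part, regulators. It was -0.53 across the 74 other replication genes and 0.023 across all tested genes. Mcm3, Mcm5 and Rrm2 depart from this order, being abundant and among the most changed.

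**Figure D5:**
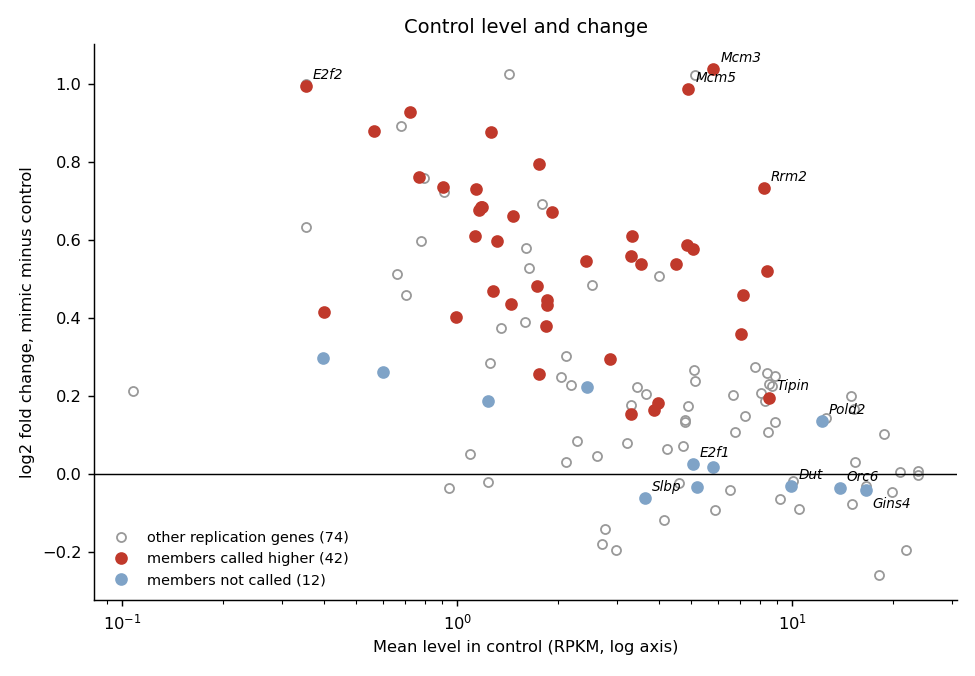
Log2 fold change (vertical axis) against mean control level in RPKM (horizontal axis, log scale) for members called higher (red), members not called (blue) and 74 other replication genes (open circles). Most blue points lie at higher levels than the median red point, and Mcm3, Mcm5 and Rrm2 lie high on both axes.

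Other genes of the replication pathway moved in part with the members. They were 74 genes listed by role, with a median control level of 4.65 RPKM against 2.17 RPKM for the members, and no test of the difference between the lists was made. Of them, 35 rose (47.3%, against 11.5% of all tested genes), 3 fell (against 10.7% of all tested genes) and 36 were not called. Their median log2 fold change was 0.17. Among genes that averaged 100 counts or more, the largest changes by step included those of Fbxo5, the early mitotic inhibitor (1.03), Ticrr, which brings activators to the helicase (1.00), Chek1, the checkpoint kinase (0.76), Asf1b, a histone chaperone (0.69), Dna2, a nuclease of Okazaki fragments (0.60), Kat7, an acetyltransferase of licensing (-0.26), and Pold4, the smallest polymerase delta subunit (0.17, not called). The 3 genes that fell were Kat7, Ctps, which makes CTP (-0.20), and Samhd1, which degrades deoxynucleotides (-0.19).

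Of the 36 that were not called, those at origins were Orc3, Orc4, Orc5 and Lrwd1, with log2 fold changes from -0.041 to 0.047, so that of the 6 origin recognition genes Orc1 to Orc6 only Orc2 passed the test (0.21, edgeR adjusted p = 0.0166). Without control replicates 1 and 2, Orc3 passed the test as lower (-0.12, adjusted p = 0.012), against -0.019 with all libraries. At the polymerases they were Pold4, Pole3, Pole4, Poldip2 and Poldip3, so that 0 of 5 partners passed the test, with 2 higher at an unadjusted p under 0.05. With 5 genes, this count cannot be told from the 11.5% higher and 10.7% lower of all tested genes. Pole3 was called higher by DESeq2 (adjusted p = 0.041), and Pole3 and Pold4 by limma voom (adjusted p = 0.031 and 0.033) and by edgeR without control replicate 2 (0.12 and 0.21, adjusted p = 0.039 and 0.048) or without control replicates 1 and 2 (0.10 and 0.21, adjusted p = 0.032 and 0.039). For helicase activation they were Rif1, Mcm8 and Mcm9, and for the clamp and lagging strand Rpa3, Rnaseh2a, Rnaseh2c, Chtf8 and Atad5. Rnaseh2c, a subunit of the RNase H2 enzyme that removes RNA from DNA, had a median of 11.2 CPM in control, with control replicate 1 highest at 14.6 CPM, and 12.9 CPM with the mimic (log2 fold change 0.20, edgeR adjusted p = 0.0723). It was called higher without control replicate 1 (0.28, adjusted p = 0.00086), by DESeq2 (adjusted p = 0.0499), by limma voom (adjusted p = 0.00051) and with the replicate block (adjusted p = 0.046). Atad5, which unloads the clamp, was called without control replicate 1 (0.17, adjusted p = 0.046) or without control replicate 4 (0.31, adjusted p = 0.025), against 0.25 with all libraries. For nucleotides they were Rrm2b, Dctd, Dtymk, Dguok, Tk2, Nme1, Nme2, Ctps2, Cad and Umps, with values from -0.18 (Dctd) to 0.14 (Cad). Without control replicate 1, Cad passed the test as higher (0.15, adjusted p = 0.039), and Rrm2b and Dctd passed as lower (-0.17 and -0.20, adjusted p = 0.033 and 0.035). For E2F control they were E2f4 and E2f5, at the fork Atr, Atrip, Rad17, Rad9a, Rad1 and Tonsl, and among the histone genes Npat. Without control replicates 1 and 2, Atr had a log2 fold change of -0.19 (adjusted p = 0.0075) against -0.022 with all libraries. The 7 genes lower in that setting were Kat7, Ctps, Samhd1, Orc3, Atr, Rrm2b and Dctd.

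Sites for the mimic were found in the 3 prime untranslated regions of 10 members and stood among the called and the uncalled. The longest annotated region of each gene was searched, and whether the transcripts in these cultures carry that region was not tested. The sites of Mcm6, Cdc7, Dut and Clspn are shown, as members with small, near-zero and large changes, with the 7-base match in capitals and positions counted from the first base of the untranslated region (GENCODE M21, GRCm38).
Mcm6, bases 1306 to 1312: gttgagcagaGCACTGAtaatggttg
Mcm6, bases 1612 to 1618: accctgcacgGCACTGAgagacagtg
Cdc7, bases 350 to 356: tgtgtggtcTGCACTGtgtgcatggg
Dut, bases 150 to 156: ctgtaagtcTGCACTGtgagcatggc
Dut, bases 456 to 462: gttcttctcTGCACTGgtgctgtgtg
Clspn, bases 118 to 124: attgcagaaaGCACTGAaagccagcc
All 13 sites found were 7-base matches, either to the whole seed or to its first 6 bases with an A behind them. The members with a site were Mcm6, Gins3, Cdc7, Rfc2, Rfc5, Dut, E2f7, Ccne2, Tipin and Clspn, of which 8 rose and 2 were not called. The median change over these 10 was 0.28 on the log2 scale, and it was 0.54 over the 44 members without a site. Over all tested genes with an untranslated region, the medians were -0.036 for 3308 genes with a site and 0.001 for 11774 without. The members with a site also had a higher median control level (3.59 against 1.85 RPKM) and longer regions (medians of 1694 and 528 bases), and the part of these in the difference was not tested.

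Genes of G2 and M phase, which follow replication in the cycle, were also higher with the mimic. All 20 on the list rose (100%, against 11.5% of all tested genes), and this list too was drawn up with earlier results known. The log2 fold changes ran from 0.51 (Aurkb) to 1.34 (Ccnb1) with a median of 1.05, whereas the median of the replication members was 0.48. Their sum ran from 323 to 404 CPM in control and from 700 to 754 CPM with the mimic. Mki67, the proliferation marker, had means of 60.0 CPM in control and 118 CPM with the mimic. The 2 lists share all libraries, and their difference was not tested.

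Markers of several cell types moved with the replication genes, and their part in the result was not tested. The summed level of 10 oligodendrocyte lineage markers ran from 429 to 724 CPM in control and from 810 to 1003 CPM with the mimic (1.80-fold, exact permutation p = 0.0022, adjusted over 11 library measures p = 0.0079, higher in 6 of 6 libraries). The highest control value was control replicate 1, and the other control libraries reached 459 CPM. Most of the difference lay in Olig1, a transcription factor of the lineage, with means of 370 and 720 CPM and with control replicate 1 at 594 CPM. The other 9 markers had mean sums of 121 and 162 CPM (1.34-fold). Without Olig2 as well, the other 8, of which 3 rose and 1 fell, had mean sums of 86.3 and 105 CPM (1.22-fold). Of the 10 markers, 5 rose (Pdgfra, Cspg4, Olig1, Olig2 and Sox10), 1 fell (Mog, -0.36) and 4 were not called, Mbp (0.27), Cnp (0.14) and Mag (-0.46) among them. The summed level of 10 astrocyte markers ran from 4949 to 5432 CPM in control and from 5807 to 6263 CPM with the mimic (1.13-fold, exact permutation p = 0.0022, adjusted p = 0.0079), with 7 higher, among them Slc1a3 at 0.99, and 1 lower (Gfap, -0.90). Slc1a3, a glutamate transporter, had means of 913 and 1815 CPM, and Gfap, a filament protein of astrocytes, of 1362 and 731 CPM. Without Slc1a3, the other 9 markers had mean sums of 4347 CPM in control and 4153 CPM with the mimic, and without both genes the other 8, of which 6 rose, had mean sums of 2984 and 3422 CPM (1.15-fold). Of 10 neural progenitor markers, 5 rose, Sox2 (0.38) among them, and 1 fell (Vim), while their sum ran from 2008 to 2177 CPM and from 1938 to 2105 CPM (exact permutation p = 0.258). Without Vim, the other 9 had mean sums of 1173 and 1294 CPM.

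The sums of the other lists were lower or did not pass the test. Neuronal markers summed to between 6810 and 7456 CPM in control and 7281 and 7613 CPM with the mimic (exact permutation p = 0.528), with 2 of 10 higher and 2 lower. Microglial markers were low in both groups, between 22.6 and 34.7 CPM in sum (exact permutation p = 0.671), with 2 of 10 lower and the others not called, and none of them had a group mean of 0. Vascular (0.74-fold, adjusted p = 0.019), mesenchymal (0.61-fold, adjusted p = 0.0179) and ependymal markers (0.79-fold, adjusted p = 0.0079) were lower in sum with the mimic by the exact permutation test, with 1, 2 and 4 markers lower and 1 vascular marker, Rgs5, higher. Most of the vascular difference lay in Kdr, a receptor of endothelial cells, with means of 58.6 and 37.6 CPM, and the other 7 vascular markers had mean sums of 17.6 CPM in control and 18.7 CPM with the mimic. Without Kdr and Rgs5 these sums were 14.9 and 12.9 CPM. The vascular markers Cldn5 and Kcnj8 were at or near 0 in both groups and were not tested. The number of detected genes and the mitochondrial share did not differ beyond the spread (exact permutation p = 0.816 and 0.957). The mitochondrial share was uneven within control, at 2.15% and 2.49% in replicates 1 and 2 and from 3.24% to 3.66% in the others.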

How the data were processed

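RNA of 12 cultures was measured, 6 treated with a negative control RNA and 6 with a miR-148a-3p mimic, grouped and numbered by the sample labels. Per the labels, the libraries were made with a TruSeq kit and sequenced on a HiSeq2000. Per the submitters' processing notes, the authors used FastQC 0.11.5, STAR 2.5.2b and featureCounts of Subread 1.5.1 with build mm10, and deposited raw counts, whole numbers for 48709 genes in each sample. The annotation release and the strand setting are not given in the sources used here, so overlapping genes on opposite strands may share reads. The series table of normalized values was not used here.

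Symbols, coordinates and exon lengths came from GENCODE M21 (GRCm38), which named 48349 of the genes; rows without a name held at most 0.0441% of a library's counts. A gene was tested where 5 or more counts were reached in 50% or more of the samples (6), as in the study's methods. The test was edgeR's (4.0.16, R 4.3.3) quasi-likelihood F-test after TMM normalization and robust glmQLFit, without covariates and two-sided, with Benjamini-Hochberg adjustment over all 18847 genes and a threshold of 0.05. An SE is the log2 fold change divided by the square root of F. CPM and RPKM were computed from the counts, RPKM with the exons of all annotated transcripts of a gene merged into a single length. Library totals of 20018234 to 37149112 counts set the precision, and differences of the scale of counting error in low genes were not detectable. Counts of the closest pair of replicates differed by a chi-square per degree of freedom of 1.56, so no 2 libraries were treated as 1. The value reached 31.1 in the control group, between replicates 1 and 4, and 7.25 in the mimic group, between replicates 3 and 6. Control replicates 1 and 2 thus stood apart from control replicates 4 to 6, with values of 14.0 or more. The alternatives were median-ratio factors, library totals alone, no filter, at least 20 counts in all samples, DESeq2 1.42.0, limma voom 3.58.1 with quality weights, the replicate block, each library left out, and control replicates 1 and 2 left out. Marker sums without the 1 or 2 markers whose mean CPM changed most were added after the data were seen and were not tested. Differences in library measures were tested two-sided by exact permutation of the group labels (924 ways), where 0.0022 is the smallest p.

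The members and all lists were chosen with earlier results of these data known. Named in full were, at each step, the 2 members with the largest absolute log2 fold change and a mean of at least 100 counts, the member with the highest control level per length, and every member not called. Mcm6 was added after its values were seen. Other lists were 74 further replication genes, 20 genes of G2 and M phase, and markers of neurons, astrocytes, oligodendrocyte lineage, microglia, neural progenitors, vascular, mesenchymal and ependymal cells. Of the other replication genes, those not called or lower and the largest change of each step, at a mean of at least 100 counts, were named, and Orc2 was named besides. Of the genes under this rule, 1 is not reported here.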

Additional observations from a re-analysis of the deposited data

Results flagged for a closer look

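Among 82 groups of 6 libraries examined (the fully described members, their summed level and median deviation, and the marker sums), 8 held a library whose distance from its nearest neighbour exceeded Dixon's 95% critical share of the group's range, where chance alone flags about 5% of such groups, or 4.1. Control replicate 1 was high for Pold2 at 31.6 CPM, with the next control library at 23.8, and for Lig1 at 24.2 CPM, with the next at 21.6. The same library was high for the summed oligodendrocyte lineage markers at 724 CPM, with the next at 459. Control replicate 2 was low for the summed neuronal markers at 6810 CPM, with the next at 7376, and for the summed astrocyte markers at 4949 CPM, with the next at 5263. Mimic replicate 4 was low for E2f8 at 6.51 CPM, with the next at 7.47, and still above every control library. Mimic replicate 1 was high for Fen1 at 1.56 CPM, with the next at 1.16. Mimic replicate 3 was low for the median deviation of the members at 0.40, with the next at 0.48. The causes were not tested.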

How the results depend on the processing

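The count of members called higher was 42 and ran from 40 to 44 over 20 alternatives, and no member was lower in any of them. Of the called members, 40 kept their call in every alternative, and Cdc7 and Rfc5 lost it in 12 and 6. The median log2 fold change of the members ran from 0.46 to 0.50. Replicate numbers did not pair the samples: deviations of same-numbered libraries correlated from -0.080 to 0.18, and 1 of 12 libraries correlated best with its own number. With the replicate block, 40 members, 36 other replication genes and 20 genes of G2 and M phase were called, and the median of the members was 0.48. The other replication genes called lower were 3, and were 5 with limma voom, 7 without control replicates 1 and 2, and 3 to 5 with 1 library left out. Those called higher were 31 to 38 with 1 library left out. Of the other replication genes, 12 not called with all libraries passed in at least 1 alternative, Orc3 and Atr only without control replicates 1 and 2, and 4 called higher (Casp8ap2, Mcmbp, E2f3 and Mtbp, named after their values were seen) lost the call in at least 1, Casp8ap2 also without control replicates 1 and 2 (0.11, adjusted p = 0.073). Without the marker that changed most, the mimic over control ratio of the summed markers turned from 1.13 to 0.955 for astrocytes (without Slc1a3) and from 0.739 to 1.07 for vascular cells (without Kdr), and was 1.15 and 0.867 without Gfap and Rgs5 as well. Values near 0 changed sign, and none was called in a setting in which its sign had changed. The cause was not tested. Without control replicates 1 and 2 and with limma voom, respectively, the log2 fold changes were 0.011 and 0.0041 for Dut, -0.071 and -0.046 for Mcm8, 0.024 and 0.012 for Poldip3, 0.0092 and 0.0063 for Nme1, 0.046 and 0.017 for E2f4, and 0.041 and 0.017 for Tonsl. Gins4 had 0.0031 without control replicates 1 and 2, Nme1 had 0.00054 with DESeq2 and 0.00067 with library totals alone, and Atr had 0.0040 with the replicate block. With 1 library left out, the ranges were -0.013 to 0.052 for E2f1, -0.082 to 0.023 for Orc3, -0.12 to 0.036 for Orc4, -0.059 to 0.019 for Orc5, -0.015 to 0.071 for Mcm8, -0.0051 to 0.032 for Poldip2, -0.045 to 0.0030 for Poldip3, -0.0026 to 0.023 for Chtf8, -0.018 to 0.015 for Nme1, -0.12 to 0.0052 for E2f4 and -0.12 to 0.028 for Atr. Low transcripts such as Fen1, with a mean of 31.2 counts, had wide intervals at this depth.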
